A study of Macaca mulatta with 20 samples.

Results

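Monocytes were profiled in 5 of the 20 arrays of the series, 1 array for each of 5 adult female rhesus macaques (Macaca mulatta) that held dominance ranks 1 (high) to 5 (low). The 5 arrays were chosen by their labels alone, as those whose cell type is monocyte and whose title ends in CD14. The other 15 arrays hold helper T cells, cytotoxic T cells and B cells of the same animals, and all 4 cell types came from blood mononuclear cells. The animals lived in 5 different social groups and each rank is held by 1 animal, so the effects of rank, of the animal and of its social group cannot be told apart. The labels name no treatment, no exact age and no gating scheme. Values are expression levels for 7303 probes of a human array, used as log2 although the base of the logarithm is not given. A difference of 1 is a doubling only on that reading, and the fold values below rest on it. No level of 1 probe is set against that of another. Throughout, values are listed from rank 1 to rank 5.

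Monocytes are circulating myeloid cells that sense microbes through receptors such as CD14 and TLR4, release cytokines and chemokines, and enter tissues to become macrophages. They also take up haemoglobin and damaged red cells, break down haem with haem oxygenase (HMOX1) and hold zinc, copper and other metals with metallothioneins, small cysteine-rich proteins that metals and glucocorticoids induce. Social rank is of interest in these cells because stress hormones, interferons and inflammatory signals all act on monocyte transcription.

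The arrays carried the transcripts of their label. CD14, the lipopolysaccharide co-receptor whose name is in the array titles, lay between 12.14 and 14.16 log2 in monocytes and between 8.01 and 8.29 in the helper T cell arrays. CST3, a secreted protease inhibitor, lay between 14.41 and 14.73 in monocytes, and TLR4 between 10.59 and 11.12. Markers of the other sorted cells were near the bottom of the scale, which runs from 7.5 to 14.77 with a median of 8.39. CD3D, a T cell receptor subunit, was between 7.63 and 7.75, CD79B, a B cell receptor subunit, between 7.97 and 8.19, and the platelet glycoprotein genes GP9 and ITGA2B reached at most 8.01. GNLY, an NK cell granule protein, was between 7.65 and 8.53. The other NK cell genes KLRD1, NKG7, KLRF1 and PRF1 lay between 7.81 and 8.17. NCAM1, an adhesion molecule listed here with the NK cell genes, was unlike them. It was bright, at 10.24, 9.98, 11.15, 10.24 and 11.19, with ranks 3 and 5 high. In helper T cells NCAM1 lay between 7.70 and 7.82. Which cells carried its transcript was not tested. Globin transcripts were bright, with HBB between 10.97 and 14.10 in monocytes, but between 11.84 and 13.93 in helper T cells too. CAMP, an antimicrobial peptide precursor, lay between 13.35 and 13.95, and CSF3R, the receptor for granulocyte colony-stimulating factor, between 12.37 and 13.92. MPO and LTF, granule genes of granulocytes, stayed between 7.98 and 8.40. The cytotoxic T cell and B cell arrays of the rank 4 animal stand apart from all other arrays. They enter no comparison here except 1 alternative fit of 20 arrays, which is given with and without them. They do count in the mean over 20 arrays that picks the probe of each gene and sets which probes are called brighter.

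The monocyte arrays did not order by rank as a whole. Those of ranks 3 and 5 resembled each other most, with r = 0.980 over 7303 probes, and only 35 probes differed by at least 1 log2 between them. The arrays of ranks 1, 2 and 4 correlated with each other at 0.968 to 0.975. Across these sets r was 0.910 to 0.947, and between ranks 2 and 3 a total of 426 probes differed by at least 1 log2. The first principal component held 67.1% of the variance and placed the arrays at -15.16, -18.00, 21.84, -7.71 and 19.04. The helper T cell arrays of the same animals were placed the same way, with r = 0.982 between ranks 3 and 5 and a first component of -7.67, -17.66, 14.61, -6.94 and 17.65. The labels give no array slide, scan or extraction batch, so its part in this split was not tested.

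**Figure D1:**
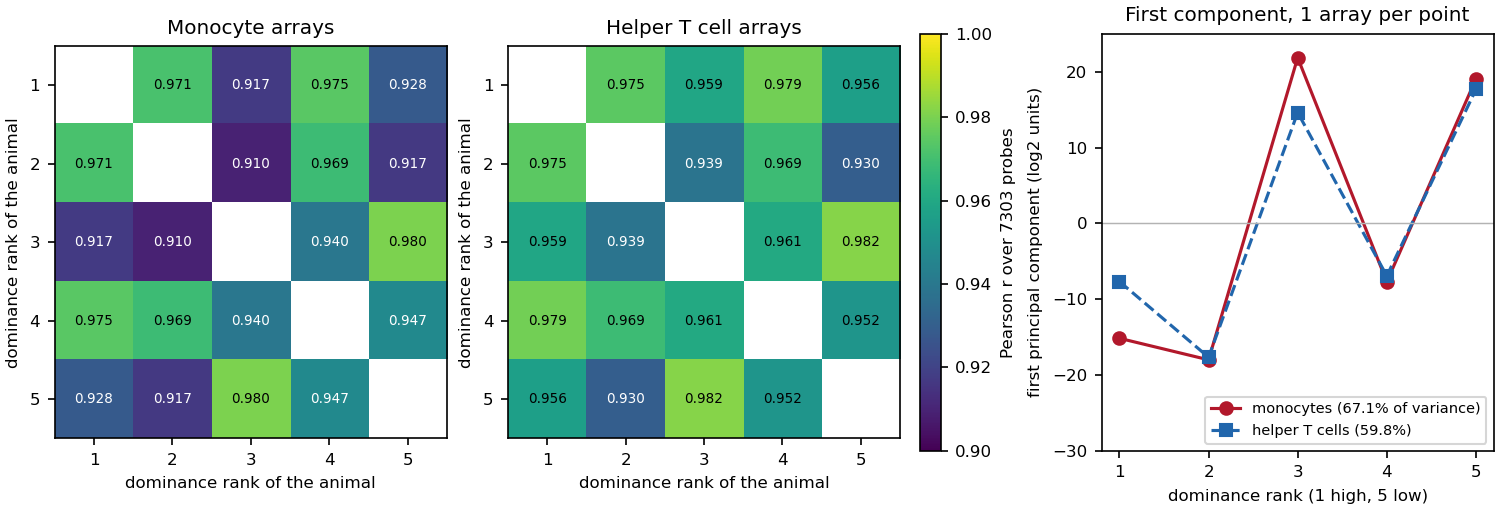
The coloured squares give Pearson r over 7303 probes between the arrays of 2 animals, by dominance rank, in monocytes and in helper T cells, and the right panel gives the first principal component of each cell type (log2 units, 1 array per point). Ranks 3 and 5 correlate at 0.980 in monocytes and 0.982 in helper T cells and lie on the positive side of both components.

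The first comparison asks whether the level of any monocyte probe followed the order of the 5 ranks, each held by 1 animal. No probe was called. The slope per rank step was fitted to the 5 arrays with limma and adjusted over all probes by the Benjamini-Hochberg method with a threshold of 0.05, and a positive slope means a higher level in lower-ranking animals. This gave 0 calls among 7303 probes (0%), with a lowest adjusted p of 0.647. At an unadjusted p under 0.05 there were 471 probes, 251 with a positive slope (3.44% of the table) and 220 with a negative one (3.01%). Ordinary regression without moderation also gave 0 calls, with 387 probes at an unadjusted p under 0.05. The median standard error of a slope was 0.0444 log2 per step. In the helper T cells of the same animals the same test also gave 0 calls (0%), with 407 probes at an unadjusted p under 0.05. With the helper T cell component as a covariate, an alternative added after the data were seen, the monocyte slope test gave 0 calls, with 224 probes at an unadjusted p under 0.05.

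Fits that drew on other arrays called a few genes. With all 20 arrays, a slope for each cell type and the animal as a random block, limma called 1 probe (0.0137%), for the metallothionein MT1G. With 18 arrays, without the rank 4 cytotoxic T cell and B cell arrays, it called 9 (0.123%). The 4 with a negative slope were MT2A, MT1G, HMOX1 and 1 unnamed probe. The 5 with a positive slope were JAML, SIRPB2, TGFBI, METTL22 and another unnamed probe. These fits use the spread of the other cell types, which assumes that monocytes vary like them. Several called genes were near the bottom of the scale in the other cells and varied little there, unlike in monocytes. MT1G lay between 7.98 and 8.39 in helper T cells, SIRPB2 between 7.72 and 7.91, and JAML between 7.86 and 7.99. The animals are the same 5, so the lower adjusted p of these fits adds no animal to the rank comparison. The monocyte slopes themselves are the same with 5, 18 and 20 arrays.

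The most negative slopes belonged to a lysosomal protease, metallothioneins, the chemokine CCL2, globins and haem oxygenase. Of 22 probes with a slope of at least 0.5 log2 per step in either direction, all 22 were negative. In 20 of these 22 probes the arrays of ranks 3 and 5 were the lowest pair, against 1682 of all 7303 probes. The exceptions were MT2A and MT1G. CTSL, a lysosomal cysteine protease, had the most negative slope of all, at -0.91 ± 0.41 (SE), and lay at 14.45, 14.43, 10.61, 13.60 and 10.30. Its order shows ranks 3 and 5 low together rather than a graded decline.

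MT2A, a metallothionein, lay at 14.31, 14.10, 13.45, 11.71 and 11.62 log2 in the monocytes of ranks 1 to 5. The values descend at every step, with the widest drop between ranks 3 and 4. The level at rank 1 was 6.44-fold that at rank 5, and the slope was -0.78 ± 0.12 (SE, n = 5 arrays, limma adjusted p = 0.647). With 18 arrays the adjusted p was 0.0303, and with 20 it was 0.0705. In helper T cells MT2A showed no such order, at 9.85, 9.12, 9.83, 8.81 and 9.77, and in the 8 cytotoxic T and B cell arrays of ranks 1, 2, 3 and 5 it lay between 8.87 and 9.75.

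MT1G, a second metallothionein, lay at 11.97, 11.87, 11.05, 9.68 and 9.29. It too descended at every step and dropped most between ranks 3 and 4, and it was 6.39-fold higher at rank 1 than at rank 5. Its slope was -0.75 ± 0.09 (SE), with a 95% interval of -1.0 to -0.51 and a limma adjusted p of 0.647. Leaving out any 1 animal kept the slope between -0.91 and -0.71. With 20 arrays the adjusted p was 0.000578, and with 18 it was 0.00108. In helper T cells MT1G stayed between 7.98 and 8.39. The probes for these near-identical family members may share transcripts, so MT1G and MT2A are not independent readings. MT1X, another member, lay at 8.21, 8.29, 8.31, 7.86 and 8.15, and MTF1, the metal-responsive transcription factor, at 7.95, 8.45, 8.18, 8.24 and 8.46, and neither was in rank order. The metallothionein list thus had 4 of 10 genes measured, of which 3 had a negative slope, with a median of -0.41 against 0.00 over all 5236 genes.

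HMOX1, which breaks down haem, lay at 13.17, 12.83, 11.06, 11.46 and 10.52. Ranks 1 and 2 were the high pair, and rank 4 lay above rank 3, so the order was not strict. The level at rank 1 was 6.31-fold that at rank 5, with a slope of -0.67 ± 0.13 (SE) and a limma adjusted p of 0.647, or 0.0154 with 18 arrays and 0.051 with 20. In helper T cells HMOX1 stayed between 7.95 and 8.11. Slopes of the oxidative stress list were split. Of the 12 measured of 16 listed, 7 had a positive slope and 5 a negative one, with a median of 0.03. NFE2L2, the transcription factor of the antioxidant response, lay at 8.85, 9.66, 8.59, 8.79 and 8.68, and CAT, which breaks down hydrogen peroxide, at 7.84, 7.92, 8.16, 8.09 and 8.44.

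Globin transcripts, like HMOX1, MT2A and MT1G, were highest at rank 1. HBB, the beta chain, lay at 14.10, 13.01, 11.60, 12.73 and 10.97, and HBA1, an alpha chain, at 12.99, 11.56, 10.33, 10.96 and 10.33. Rank 1 was highest in both and ranks 3 and 5 were lowest. Unlike MT2A and HMOX1, HBB showed the same order in helper T cells, at 13.93, 13.84, 12.53, 13.32 and 11.84. All 7 measured red blood cell genes of 10 listed had a negative slope in monocytes, with a median of -0.13, and the list mean was 10.51, 9.92, 9.28, 9.69 and 9.24. The red cell genes ALAS2, AHSP and EPB42 lay between 7.67 and 8.36. MT2A and MT1G had rank 3 above rank 4, the reverse of the globins. The part of red cell RNA in the values of HMOX1 and of the metallothioneins was not tested.

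**Figure D2:**
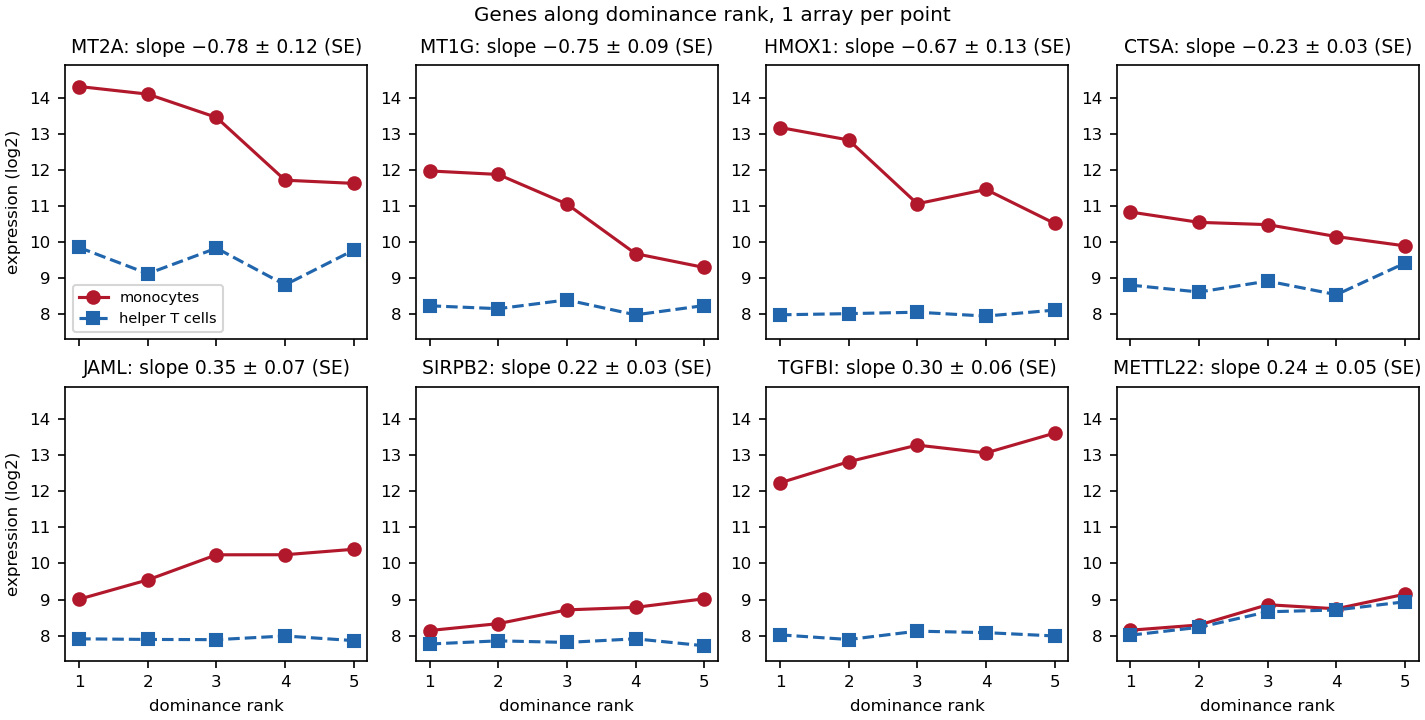
Expression of 8 genes on the log2 scale (vertical axes) against dominance rank (horizontal axes), with 1 array per point, monocytes as red circles and helper T cells as blue squares; panel titles give the monocyte slope and its SE in log2 per rank step. MT2A, MT1G and CTSA descend at every step in monocytes, from 14.31 to 11.62 for MT2A, while METTL22 is lowest at rank 1 and highest at rank 5 in both cell types.

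A strict order over all 5 ranks was seen in 58 probes that ascended (0.794% of the table) and 82 that descended (1.12%). In helper T cells 44 probes ascended (0.602%) and 53 descended (0.726%). Only 3 probes were in the same strict order in both cell types, all descending. They include USPL1, a SUMO protease, at 8.27, 7.89, 7.87, 7.86 and 7.79 in monocytes, and WRAP53, a telomerase and Cajal body protein, at 8.01, 8.0, 8.0, 7.89 and 7.83. These genes were named after their values were seen. Of the 140 strictly ordered monocyte probes, 90 (64.3%) had a helper T cell slope of the same sign, against 63.2% of all probes. A strict order in monocytes was therefore matched by the sign in helper T cells at about the rate of the whole table.

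Among the descending genes with a mean above the table median, CTSA followed the metallothioneins. CTSA, the lysosomal protective protein cathepsin A, lay at 10.83, 10.54, 10.48, 10.15 and 9.89 and had a slope of -0.23 ± 0.03 (SE). Leaving out any 1 animal kept its slope between -0.24 and -0.21. Its helper T cell values had the opposite end high, at 8.81, 8.61, 8.92, 8.54 and 9.42. PSMA1, a proteasome subunit, lay at 10.34, 10.32, 9.81, 9.80 and 9.75, with ranks 1 and 2 above the other 3. TOB1, an antiproliferative protein, lay at 9.44, 9.02, 8.93, 8.90 and 8.86, so most of its range was the step from rank 1 to rank 2. RAB43, REXO1, CWC15, CGGBP1, ZNF638, SECISBP2L and NSUN3 completed the 12, with slopes between -0.13 and -0.11. CGGBP1, a CGG repeat binding protein, has a second probe with a slope of 0.03, so its probes disagree.

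Among the ascending genes JAML led. JAML, an adhesion molecule of myeloid cells that binds CXADR on epithelia, lay at 9.01, 9.54, 10.24, 10.24 and 10.39. It was lowest at rank 1 and level from rank 3 on, with rank 5 at 2.61-fold the level of rank 1. Its slope was 0.35 ± 0.07 (SE) with a limma adjusted p of 0.647, or 0.0124 with 18 arrays. In helper T cells JAML stayed between 7.86 and 7.99. SIRPB2, a member of the signal regulatory protein family, lay at 8.14, 8.33, 8.71, 8.78 and 9.02. It ascended at every step, with a slope of 0.22 ± 0.03 (SE) and an adjusted p of 0.647, or 0.0087 with 18 arrays, and leaving out any 1 animal kept the slope between 0.21 and 0.23.

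The other ascending genes had smaller slopes. CD302, a C-type lectin receptor, lay at 9.16, 9.20, 9.30, 9.38 and 9.93, and CPVL, a carboxypeptidase of monocytes and macrophages, at 13.03, 13.06, 13.15, 13.24 and 13.59. In both, rank 5 stood above a narrow range of the other 4. GALC, which degrades galactosylceramide, lay at 9.06, 9.14, 9.24, 9.40 and 9.64, and ARSA, which degrades sulfatide, at 8.29, 8.36, 8.46, 8.65 and 8.70. Both are lysosomal enzymes and both climbed by small steps. BEX3 lay at 8.60, 8.86, 9.01, 9.25 and 9.40, with a slope of 0.20 ± 0.03 (SE). TMEM106C, ITPA, DCK, NOP56 and ADCY7 completed the 12, with slopes between 0.12 and 0.18, and the probes of ITPA, a nucleotide pyrophosphatase, disagree.

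The 2 remaining named genes called with 18 arrays were not in strict order and were named after their values were seen. TGFBI, a matrix protein that TGF-beta induces, lay at 12.23, 12.82, 13.28, 13.06 and 13.61 in monocytes, with a slope of 0.30 ± 0.06 (SE) and an adjusted p of 0.0368 with 18 arrays. Rank 1 was lowest and rank 5 highest, and helper T cells stayed between 7.89 and 8.12. METTL22, a protein lysine methyltransferase, lay at 8.15, 8.29, 8.86, 8.74 and 9.15, with a slope of 0.24 ± 0.05 (SE) and an adjusted p of 0.0124 with 18 arrays.

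METTL22 had the same course in the other cells of these animals. Its helper T cell values were 8.01, 8.23, 8.66, 8.71 and 8.94. At ranks 1, 2, 3 and 5 its cytotoxic T cell values were 8.02, 8.19, 8.46 and 8.85, and its B cell values 8.19, 8.30, 8.72 and 9.17. All 4 cell types thus had rank 1 lowest and rank 5 highest, and the slope of monocytes minus that of helper T cells was 0.01 ± 0.06 (SE).

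The split of ranks 3 and 5 from ranks 1, 2 and 4 involved named monocyte effector genes. A range of at least 1 log2 was reached by 719 probes (9.85%). In 47 probes (0.644%) 2 arrays lay at least 1 log2 below the other 3, and in 43 of these the pair was ranks 3 and 5. In 28 probes (0.383%) 2 arrays lay at least 1 log2 above the other 3, and in 16 the pair was ranks 3 and 5. Over all 7303 probes ranks 3 and 5 were the lowest pair in 1682 and the highest pair in 1879. Among the 719 probes they were the lowest pair in 329 and the highest pair in 239. Counting pairs was added after the data were seen, so these genes are described with no test.

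Genes low at ranks 3 and 5 included a protease, transcriptional regulators, a vasoconstrictor and a chemokine. CTSL has a second probe, which lay at 14.16, 14.29, 10.42, 13.45 and 10.39 and so ordered the animals nearly alike. BASP1, a membrane-bound signalling protein, lay at 13.59, 13.39, 10.50, 13.07 and 10.40. FHL2, a LIM domain co-regulator, lay at 11.42, 11.91, 8.51, 11.56 and 8.81. In each of them the pair lay at least 2 log2 below the other 3 animals. JARID2, a cofactor of Polycomb repressive complex 2, lay at 12.49, 12.72, 9.83, 11.95 and 9.90. PLPP3, a lipid phosphatase, and EDN1, the precursor of endothelin-1, had the same split, with EDN1 at 11.92, 11.57, 8.01, 10.80 and 8.91. MMP9, a gelatinase, lay at 10.67, 9.92, 8.04, 10.48 and 8.35. CCL2, the main monocyte-attracting chemokine, lay at 10.95, 10.89, 7.89, 9.32 and 8.16, so that rank 4 was between the pairs.

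Genes high at ranks 3 and 5 included defining receptors of the lineage. CD14 lay at 12.43, 12.14, 14.16, 12.48 and 13.71, and CSF1R, the receptor for macrophage colony-stimulating factor, at 11.22, 10.58, 12.86, 10.92 and 12.47. Both were more than 2-fold higher in this pair than in any of the other 3 animals. RAB10, a vesicle transport GTPase, lay at 9.34, 9.35, 11.66, 9.93 and 11.54. CSK, a kinase that restrains Src family kinases, lay at 10.33, 9.98, 11.79, 10.42 and 11.73. CSK was split the same way in helper T cells, at 10.20, 9.49, 11.64, 10.32 and 11.69, while CD14 and CSF1R were near the bottom of the scale there. In a sorted bulk sample, fewer cells of a type and less RNA per cell cannot be told apart.

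Helper T cells shared the pair for some of these probes. Of the 43 probes low at ranks 3 and 5, 14 had the same lowest pair in helper T cells, against 41.3% of all probes whose lowest monocyte pair was ranks 3 and 5. Of the 16 probes that were high, 10 had the same highest pair, against 45.8%. The difference between these shares was not tested.

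**Figure D3:**
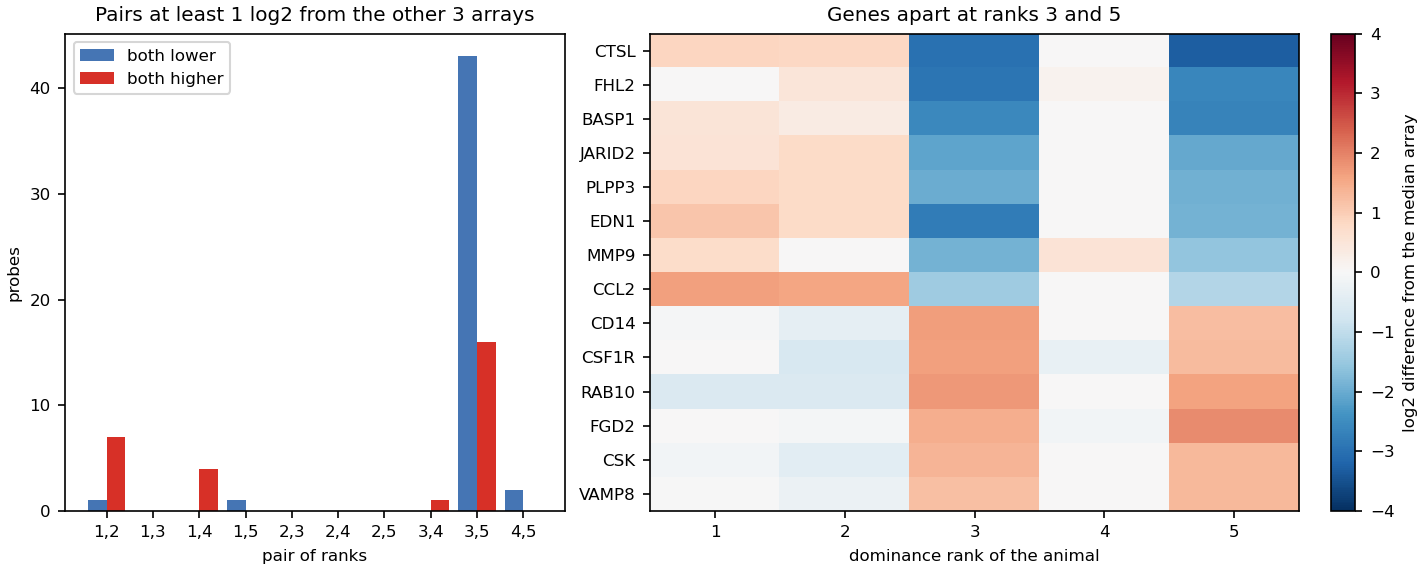
The bars count probes in which 2 monocyte arrays lay at least 1 log2 below (blue) or above (red) the other 3, for each pair of dominance ranks, and the colours on the right give log2 differences of 14 genes from their median array. The pair of ranks 3 and 5 holds 43 of 47 lower and 16 of 28 higher probes, with CTSL lowest and CD14 and CSF1R raised in those columns.

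Single animals also stood out. In 24 probes (0.329%) 1 array lay at least 1 log2 above every other, and in 13 (0.178%) 1 array lay at least 1 log2 below. Of the 24, the rank 1 animal held 15, the rank 2 animal 6 and the other 3 animals 1 each. The 15 include the globin probes of HBA1, HBA2 and HBB. Over all probes rank 1 was highest in 18.7% and rank 2 in 23.9%. Of the 13, the rank 2 animal held 6 and the rank 3 animal 5. Over all probes rank 2 was lowest in 21.8% and rank 3 in 21.3%. In 20 of the 37 probes (54.1%) the helper T cell array of the same animal was the same extreme, against 31.3% over all probes. With 1 animal per rank, these genes are described with no test of the rank.

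The rank 1 animal had high interferon-stimulated genes. HERC5, an enzyme that attaches ISG15 to proteins, lay at 11.24, 8.53, 7.95, 8.63 and 8.0, and ISG15 itself, a ubiquitin-like modifier, at 10.30, 7.88, 8.17, 8.58 and 8.07. IFI6, an interferon-induced mitochondrial protein, lay at 13.31, 11.82, 10.42, 11.31 and 10.48. Rank 1 was the only high array for HERC5 and ISG15, while for IFI6 ranks 2 and 4 also lay above ranks 3 and 5. The helper T cells of this animal were highest for HERC5 (9.22) and IFI6 (11.17) but not for ISG15, which lay at 8.71, 7.83, 9.19, 10.05 and 10.09 there. IFI44 and GBP1, an interferon-induced GTPase, were also highest at rank 1, at 10.85 and 10.80, and were named after their values were seen.

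The type I interferon list had 13 of its 33 genes measured, and all 13 had a negative slope, with a median of -0.13 against 0.00 over all genes. Rank 1 was highest in 11 of the 13, against 17.8% of all genes. The list mean was 9.70, 8.69, 8.52, 8.78 and 8.57, so ranks 2 to 5 lay within a narrow range and rank 1 was about 1 log2 above them. The negative slopes thus come with 1 high animal at the end of the scale rather than a graded order. No gene of the list was called in the fit of 5 arrays, and 2 (IFI6 and IFIT3) had an unadjusted p under 0.05. IFIT3, an interferon-induced antiviral protein, lay at 9.03, 8.29, 7.89, 8.14 and 7.97. In helper T cells the list mean was 9.11, 8.84, 8.98, 8.97 and 9.10.

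Complement and other genes were high in the same animal. C1QB and C1QC, chains of the complement component C1q, lay at 11.02, 9.78, 8.92, 9.29 and 9.60 and at 10.24, 9.04, 8.26, 8.63 and 8.67. They shared an order with rank 1 highest and rank 3 lowest, and were named after their values were seen. RHEB, the GTPase that activates mTORC1, lay at 11.81, 9.64, 8.42, 9.26 and 10.02. RHEB was highest in the rank 1 animal in the other cell types as well, with a helper T cell level of 10.32 and, among ranks 1, 2, 3 and 5, a B cell level of 10.73 and a cytotoxic T cell level of 10.34. TNS3, a focal adhesion protein, lay at 9.60, 8.07, 7.93, 7.68 and 7.91, with no such level in helper T cells, where it reached at most 7.74. In B cells of ranks 1, 2, 3 and 5 it lay at 9.24, 7.80, 8.98 and 8.37, so rank 1 was highest there too. PPP1R15A, a stress-induced phosphatase subunit, was the low gene of this animal, at 11.59, 13.38, 13.16, 13.44 and 13.03, and it was lowest in this animal in helper T cells too, at 8.90.

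Genes low in the rank 2 animal included an immediate early gene and a DNA sensor. FOS, a subunit of the AP-1 transcription factor, lay at 12.18, 10.29, 12.25, 12.07 and 12.65, and at 12.92, 9.62, 12.13, 13.31 and 11.54 in helper T cells. Rank 2 was the lowest in both. AIM2, a sensor of cytosolic DNA, lay at 11.86, 9.96, 11.31, 11.74 and 11.80, and CARD16, a caspase-1 regulator, at 10.10, 8.39, 10.11, 9.67 and 11.08. NCF1C, annotated as a pseudogene of an NADPH oxidase subunit, lay at 9.99, 8.60, 10.37, 10.52 and 10.22, and its probe may not be specific to it. SMAP2, a regulator of vesicle traffic, was low at rank 2 in monocytes, at 11.84, 10.76, 12.45, 11.88 and 12.20, whereas its helper T cell value was the highest of the 5.

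CCDC134, a secreted coiled-coil protein, had the widest range of the genes high at rank 2. It lay at 7.62, 12.35, 10.57, 10.93 and 7.66 in monocytes and at 7.57, 12.46, 11.17, 10.96 and 7.69 in helper T cells. In both, ranks 1 and 5 were near the bottom of the scale, ranks 3 and 4 were intermediate and rank 2 was highest. Its cytotoxic T cell values at ranks 1, 2, 3 and 5 were 7.69, 12.65, 10.88 and 7.61, with rank 2 highest again and ranks 1 and 5 near the bottom. B cell values at these ranks were 7.63, 13.17, 11.73 and 7.64. The array is a human one, and the match of its probes to the sequence of each animal was not tested. GDF15, a stress-induced cytokine, lay at 9.04, 10.15, 8.21, 8.46 and 8.20, and LILRA2, an activating immunoglobulin-like receptor, at 9.40, 10.99, 8.72, 8.53 and 9.91. RAPH1, an actin regulator, lay at 8.73, 9.74, 7.97, 8.67 and 8.15. These 3 genes were not above 8 in any helper T cell array.

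The rank 3 animal had low chemokines. CCL7, a monocyte-attracting chemokine, lay at 12.36, 12.27, 8.91, 11.11 and 10.72, and CCL3L1, a chemokine with near-identical copies, at 13.95, 13.66, 11.83, 13.25 and 12.86. PHLDA1 lay at 10.60, 10.51, 8.61, 10.63 and 9.89. In all 3 genes rank 3 was the lowest and rank 5 was lower than ranks 1, 2 and 4. The related CCL3L3 lay at 14.60, 14.47, 14.10, 14.24 and 14.47, with ranks 2 and 5 equal. It too was lowest at rank 3, but only by 0.14 log2. CRISPLD2, a secreted lipopolysaccharide-binding protein, was the high gene of this animal, at 8.39, 8.03, 9.99, 8.54 and 8.85.

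The rank 4 animal stood out for HLA-DQB1 and LTB. HLA-DQB1, a class II antigen-presenting chain, lay at 11.65, 11.50, 11.67, 8.35 and 11.71, and rank 4 was more than 3 log2 below all the others. The same animal's CD74, the class II invariant chain, was not low, at 13.10, 12.88, 13.01, 13.03 and 12.74. Class II genes have near-identical relatives, and the array does not assign the probe to a single one. LTB, lymphotoxin beta, lay at 10.78, 9.25, 8.83, 11.83 and 8.88, with rank 1 also high, and a second probe ordered the animals alike, at 9.51, 8.20, 7.82, 9.93 and 7.96. LTB is bright in helper T cells, between 13.26 and 14.02, and the mean of the T cell list in the rank 4 monocytes was 7.86, within the 7.81 to 7.93 of the 5 arrays. Of its 13 measured genes 2 were highest at rank 4, CD28 at 8.15 and CD6 at 7.70. Another 4 were lowest there, BCL11B at 7.61, CD2 at 7.95, IL7R at 7.97 and LAT at 7.60. CD3D was at 7.72. The part of T cell RNA in the LTB level was not tested. At rank 5 only 1 unnamed probe stood out.

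**Figure D4:**
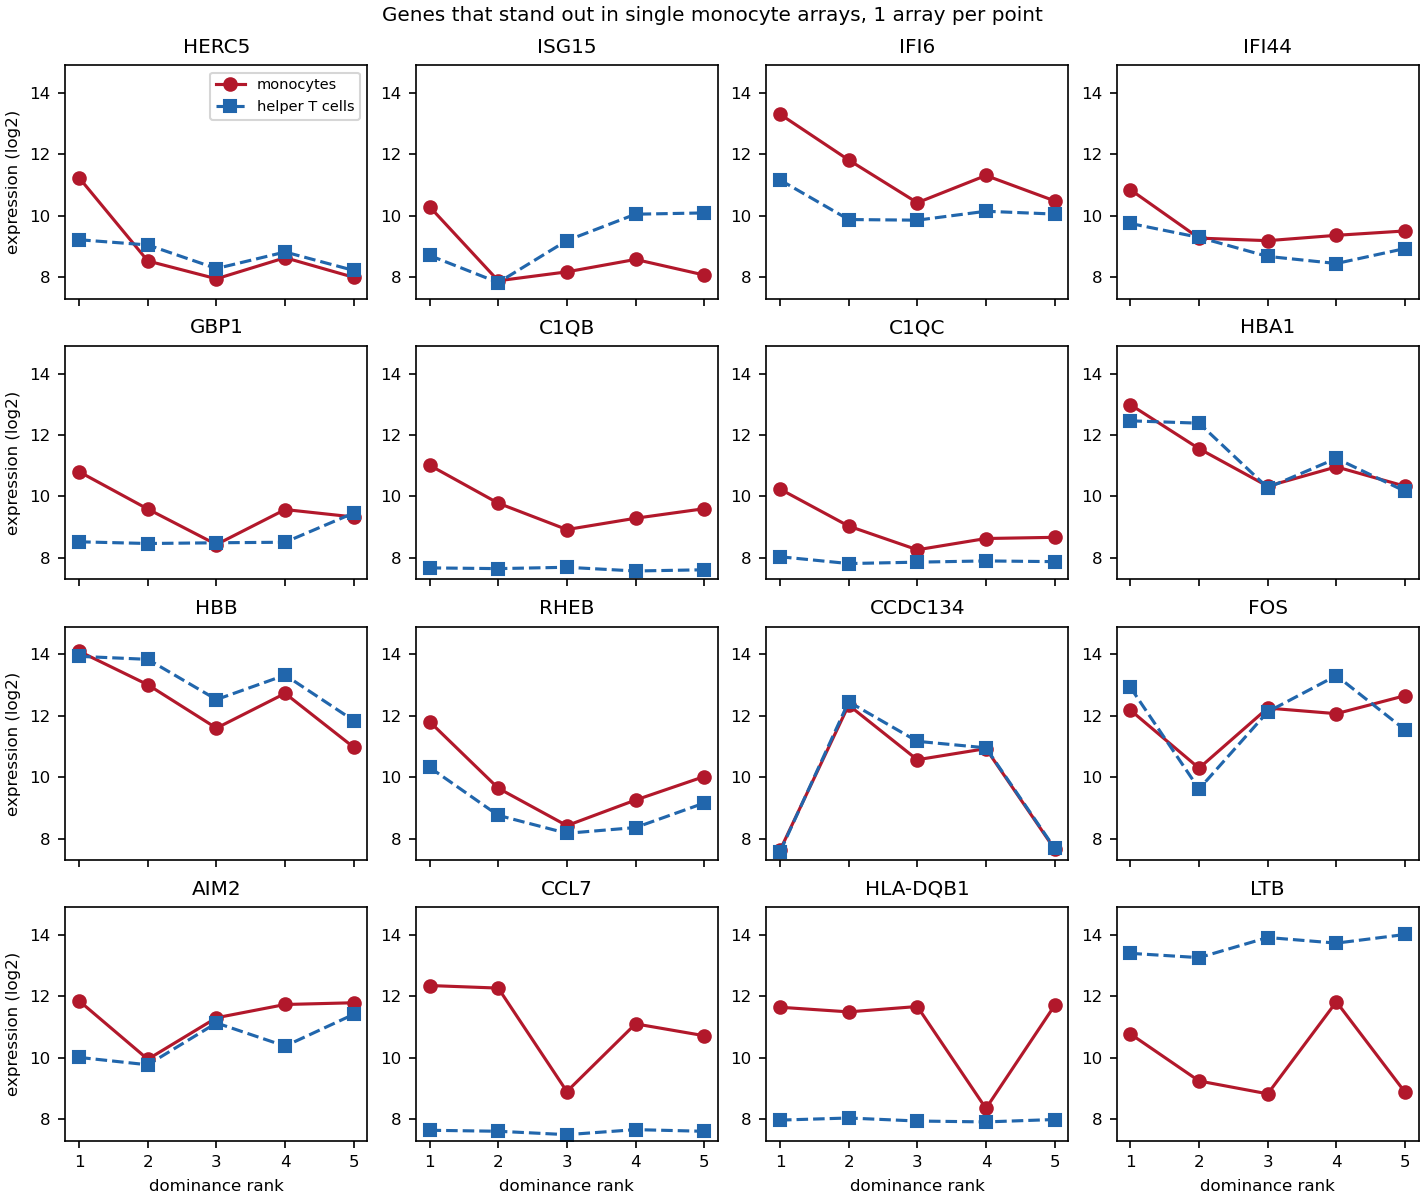
Expression on the log2 scale (vertical axes) of 16 genes against dominance rank (horizontal axes), with 1 array per point, monocytes as red circles and helper T cells as blue squares. HERC5, ISG15 and IFI6 are highest at rank 1 in monocytes, FOS and AIM2 are lowest at rank 2, and HLA-DQB1 is at 8.35 at rank 4, while CCDC134 follows the same course in both cell types.

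None of the 28 gene lists held a gene called in the fit of the 5 monocyte arrays, while MT1G, MT2A and HMOX1 are in lists and were called with 18 arrays. Over all 5236 genes 2622 slopes were positive and 2614 negative, so an even split is the reference for each list. The lineage list had 12 of 22 genes measured and 10 with a positive slope, with a median of 0.16. Its mean was 11.27, 11.24, 11.87, 11.37 and 11.91, so ranks 3 and 5 were the high pair here as well. S100A8 and S100A9, the calprotectin subunits, had slopes of 0.19 ± 0.06 and 0.20 ± 0.07 (SE), and S100A9 lay at 13.78, 13.78, 14.53, 14.57 and 14.38. CST3 had a slope of -0.07 ± 0.04. The 6 measured genes of the non-classical list had 4 negative slopes and a median of -0.02, and CX3CR1, the fractalkine receptor of that subset, lay at 7.85, 7.73, 7.91, 7.73 and 8.21.

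Most inflammatory genes had negative slopes, and PTGS2 was the widest exception. Of 11 measured cytokine and chemokine genes of 24 listed, 8 had a negative slope, with a median of -0.08, and the list mean was lowest at rank 3, at 9.91 against 10.68 at rank 1. PTGS2, the inducible cyclooxygenase, went the other way, at 10.60, 9.66, 10.76, 11.39 and 11.72, with a slope of 0.40 ± 0.14 (SE, limma adjusted p = 0.647). CXCL8, a neutrophil-attracting chemokine, lay at 14.34, 14.16, 13.54, 14.50 and 13.76, with ranks 3 and 5 low. IL10, an anti-inflammatory cytokine, lay at 8.57, 8.56, 8.08, 8.22 and 8.05. The inflammasome list had 3 genes measured, all with a positive slope and a median of 0.07.

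Signalling upstream of these genes showed small slopes. In the NF-kB list 9 of 10 measured genes had a negative slope, with a median of -0.04, and NFKB1, a subunit of the factor, lay at 10.27, 9.97, 9.54, 9.75 and 9.42 (slope -0.19 ± 0.05, SE). NFKBIA, its inhibitor, lay at 14.47, 13.57, 13.79, 14.19 and 13.87. In the Toll-like receptor list 7 of 11 measured genes had a negative slope, with a median of -0.02, among them the adaptor kinase IRAK2 at -0.31 ± 0.10 and the flagellin receptor TLR5 at -0.10 ± 0.03. TLR4 had a slope of 0.07 ± 0.06, with rank 4 highest at 11.12. The 15 measured immediate early genes had 12 positive slopes and a median of 0.09, and the list mean was lowest at rank 2, at 11.12 against 11.20 to 11.55 in the other 4.

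The glucocorticoid list bears on the stress axis that dominance rank is often studied for. Of 13 measured genes, 6 had a positive slope and 7 a negative one, with a median of -0.01, close to the split over all genes. NR3C1, the glucocorticoid receptor, lay at 8.77, 9.09, 7.99, 8.50 and 7.94, with a slope of -0.23 ± 0.10 (SE, limma adjusted p = 0.647), and ranks 3 and 5 were its low pair. TSC22D3, a classic glucocorticoid-induced gene, lay at 10.25, 9.81, 10.18, 10.16 and 9.72. DUSP1, a phosphatase that glucocorticoids induce, lay at 9.67, 8.80, 9.66, 9.59 and 10.23, and neither it nor TSC22D3 followed the order of NR3C1. SGK1, a kinase named for its induction by serum and glucocorticoids, lay at 13.03, 12.52, 12.95, 12.99 and 13.68.

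The remaining lists on monocyte function were split or small. The 7 measured class I genes all had negative slopes, with a median of -0.01, led by HLA-F at -0.35 ± 0.21 (SE), and B2M lay at 13.49, 13.15, 13.07, 13.11 and 13.19. The 4 measured class II genes were split evenly, and the low mean of rank 4, 9.36 against 10.15 to 10.27, comes from HLA-DQB1. The 10 measured lysosomal genes were split 5 to 5, with CTSL and CTSA at the negative end and CTSB, another cathepsin, at 0.21 ± 0.14. The 8 measured Fc and phagocytic receptors had 5 negative slopes, led by the scavenger receptor MSR1 at -0.27 ± 0.23. Of 8 hypoxia and glycolysis genes 6 had a negative slope, led by PFKFB3, a regulator of glycolysis, at -0.28 ± 0.11, while all 5 oxidative phosphorylation genes had a positive one, with UQCRC2, a subunit of complex III, at 0.19 ± 0.07. The myeloid factor list had 4 of 5 negative, the chemokine receptor and adhesion list 4 of 8, the heat shock list 2 of 2, and the ribosomal protein list 0 of 2.

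Marker lists of other cells differed in how far they varied. The mean of the T cell list moved between 7.81 and 7.93, the B cell list between 7.79 and 7.89, the platelet list between 7.98 and 8.05, and the NK cell list between 8.18 and 8.41. The NK cell mean includes the bright NCAM1. GNLY was highest in the rank 1 monocytes, at 8.53 against 7.65 to 7.81 in the other 4. The dendritic cell list had 3 genes measured and a mean of 8.33, 8.04, 7.83, 7.95 and 8.29. FCER1A, the high-affinity IgE receptor chain of dendritic cells and basophils, lay at 9.39, 8.25, 8.05, 8.33 and 9.02, so ranks 1 and 5 were high. The list mean largely follows this gene. The 3 genes of the list were highest at 3 different ranks, 1, 2 and 5, and all were lowest at rank 3. The granulocyte list mean was 10.01, 9.66, 9.52, 10.07 and 9.47, and CSF3R lay at 13.45, 12.37, 12.74, 13.92 and 12.61. The part of such cells in the results above was not tested.

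**Figure D5:**
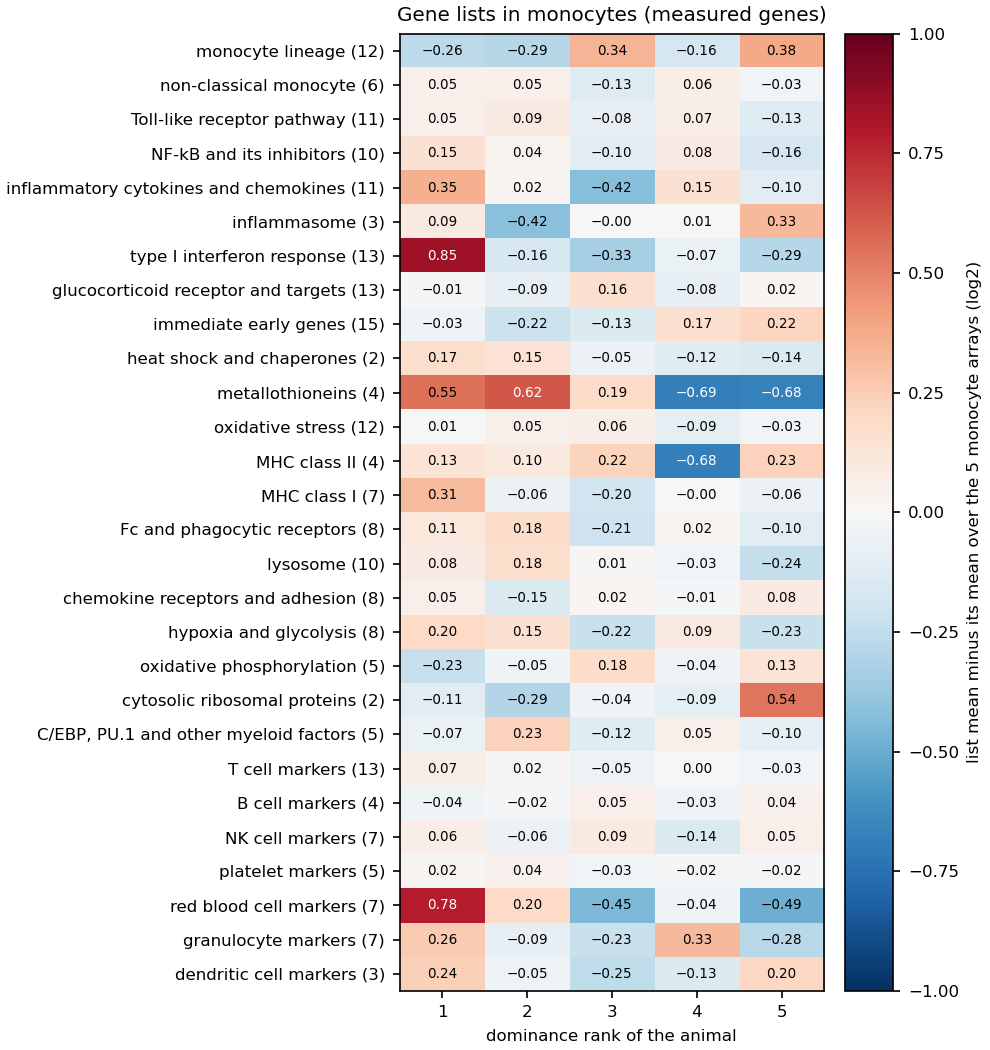
Mean of each gene list in the monocyte array of each dominance rank, minus the mean of the list over the 5 arrays (log2), with the number of measured genes in brackets. The type I interferon and red blood cell lists are highest at rank 1, metallothioneins are high at ranks 1 and 2, MHC class II is low at rank 4, and the monocyte lineage list is high at ranks 3 and 5.

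The last comparison asks whether a rank slope in monocytes differs from that in helper T cells of the same animals. The slope difference was fitted to 10 arrays as an interaction of cell type and rank, and limma called 0 probes (0%), with a lowest adjusted p of 1 and 285 probes at an unadjusted p under 0.05. With the animal as a replicate block limma also called 0 probes (0%), with a lowest adjusted p of 0.574 and 453 probes at an unadjusted p under 0.05. For MT1G the slope of monocytes minus that of helper T cells was -0.74 ± 0.11 (SE), or ± 0.08 with the block (adjusted p = 0.574). For ISG15 the difference was -0.87 ± 0.30 (SE), or ± 0.10 with the block (adjusted p = 0.574), since its helper T cell values ran upward and its monocyte values did not. For HBA1 the difference was -0.02 ± 0.14 with the block, which is within its error of 0. Over all probes the slopes of the 2 cell types correlated at r = 0.416, which describes 7303 probes measured in the same 5 animals. No difference of slope passed the threshold, which does not show that the slopes are alike.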

How the data were processed

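The authors deposited 2 tables of log2 expression values for 20 Illumina arrays, which hold identical values (largest difference 0) although 1 is named as not normalized. Per the labels, RNA was extracted on Qiagen columns with DNase treatment and biotin-labelled with an Ambion kit. Of software, only lumi is named, per the submitters' processing notes, and its version is not. All deposited columns share 1 distribution. The base of the logarithm is not given in the sources used here, and the values were used as log2. Of 7303 probes, 6055 have 1 symbol in the platform annotation, 1 has several and 1247 have none; the 5236 symbols include 701 with several probes, of which the probe with the highest mean over 20 arrays describes the gene, and 4940 occur in the macaque RefSeq table. The array number limits the precision, and no depth applies.

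Slopes on rank and their difference between cell types were fitted with lmFit and eBayes of limma 3.58.1, run in R 4.3.3 (two-sided, Benjamini-Hochberg over all probes, threshold 0.05), and the fits were tested on simulated data. With 1 array per animal and cell type, p-values measure only the spread around a line through 5 animals. The same animal gave the arrays of each rank, so the numbers pair the samples. Deviations from the cell type means correlated over probes at 0.238 to 0.423 within animals (median 0.408) and at -0.354 to 0.313 between them. Members and lists were chosen with earlier results of these data known. Named genes were those called, the first 12 in each strict order by slope with a mean above the median, up to 5 per rank and direction standing out by at least 1 log2, the extremes of each list, and a short list of monocyte and glucocorticoid genes. The 20 genes of widest range, the pairs of ranks and 2 alternatives were added after the data were seen. Alternatives covered the table used, array centring, dim probes, moderation, the arrays in the fit, each animal left out, the block and the gap.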

Additional observations from a re-analysis of the deposited data

Results flagged for a closer look

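Each value here is the gap between the most extreme array and its nearest neighbour, as a share of the range over the 5 monocyte arrays. A value above 0.71 marks 1 array as far from the others. Chance alone marks about 1 in 20 groups, and 13 of the 110 named genes and 2 of the 28 list means were above it. Many of these genes were named because 1 array stood out, so this count is no evidence of more outliers than chance gives.

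The rank 1 array was far above the others for HERC5 (0.791), ISG15 (0.712) and TNS3 (0.797), for B2M (0.725), a class I antigen presentation gene, for TOB1 (0.732) and GNLY (0.816), and for the mean of the type I interferon list (0.779). It was far below the others for PPP1R15A (0.776) and for TMEM106C (0.799), so the strict order of TMEM106C and of TOB1 rests largely on the first step. The rank 2 array was far below for FOS (0.752), AIM2 (0.711) and NCF1C (0.726). The rank 4 array was far above for TLR4 (0.734) and far below for HLA-DQB1 (0.938) and for the mean of the MHC class II list (0.86), which HLA-DQB1 sets.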

How the results depend on the processing

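The count of 0 called monocyte slopes held under every alternative except the fits with a random replicate block, which called 1 probe with all 20 arrays and 9 with 18; these use more arrays to estimate the spread. With the animal as a replicate block, 0 slope differences were called, as in every other alternative for that comparison. The pairing changed no call of the slope difference. Strictly ordered probes numbered 31 ascending and 32 descending among brighter probes, and 169 to 525 and 226 to 472 with 1 animal left out, where only 4 ranks need to be in order. Probes standing out numbered 14 above the other arrays among brighter probes, 5 above and 3 below with a gap of 1.5 log2, and 65 above and 36 below with a gap of 0.75 log2. With 1 animal left out they numbered 31 to 64 above and 9 to 92 below, the most without rank 5, whose array resembles that of rank 3; without rank 3 they were 49 and 64, and without rank 4 they were 44 and 18. Pairs with a gap of 1.5 log2, added after the data were seen, numbered 4 above and 17 below. All 24 named strict-order genes kept the sign of their slope in every alternative. Leaving out 1 animal could not change it, since the remaining values of a strictly ordered gene are still in order. Alternatives that alter only the estimate of the spread leave the slope as it is. The kept sign is therefore little evidence of stability. Slopes changed sign with 1 animal left out for B2M (-0.119 to 0.016, reversed without rank 1), NFKBIA (-0.125 to 0.129, without rank 1), CX3CR1 (-0.0176 to 0.126, without rank 5) and TSC22D3 (-0.112 to 0.0112, without rank 5), and reversed for CD14 (-0.0863) and CXCL8 (0.0808) with the helper T cell component as a covariate, added after the data were seen; the cause was not tested. Among the genes standing out at single ranks, the slope with 1 animal left out also crossed 0 for ISG15 (-0.53 to 0.10), IFI44 (-0.45 to 0.09), RHEB (-0.89 to 0.20), CCDC134 (-1.37 to 0.82), HLA-DQB1 (-0.97 to 0.03) and AIM2 (-0.01 to 0.59), and it was not computed for every gene named. With 1 animal per rank, a slope cannot be told apart from differences between 5 animals, and probes near the bottom of the scale may lie near background, since detection values were not used here.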
